A study of Mus musculus with 2 samples.

Results

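The cells described here were mouse embryonic stem cells that carried extra chromosome 1 RNA but no excess of chromosome 8 or 14 RNA, compared with cells of the same library without any of these 3 excesses. There were 1329 such cells, set against 1812 without a gain, among 21387 selected Oct4-positive cells of the late library and 54704 barcodes with at least 18000 unique molecular identifiers (UMIs) in both libraries. All cells were of the inbred strain C3H/HeSn-Paf/J and came from 9 embryonic stem cell lines, 3 each derived from XX, XO and XY embryos, which were mixed before capture. The medium held serum and leukaemia inhibitory factor (LIF), and irradiated mouse embryonic fibroblasts on gelatin served as feeder cells. Time 1 was the initial time point, at an early passage, and time 2 followed 10 further passages, with 1 droplet library for each. Both classes of cells shared every treatment, and single cells were not assigned to lines. A gain and the line in which it arose therefore cannot be told apart.

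A cell was selected when it had at least 1000 genes, at most 10% mitochondrial UMIs, at least 10 UMIs of Pou5f1 (Oct4), fewer than 5 UMIs of Col1a1 and Bgn together, and fewer than 5 of Fgf5, Fgf8 and Car2 together. Its relative chromosome 1 dosage was its chromosome 1 UMIs over those of the 16 autosomes other than 1, 8 and 14, divided by the median of the selected time 1 cells. The dosages of chromosomes 8 and 14 were computed in the same way. Cells at time 2 whose chromosome 1 dosage was at least 30% above the time 1 median, and whose dosages of 8 and 14 were less than 15% above it, formed the gain class. Cells with all 3 dosages less than 15% above it formed the class without a gain. The members were thus chosen by their measured chromosome 1, 8 and 14 RNA. The higher level of chromosome 1 genes follows from the choice and is given as a description, and genes off chromosome 1 are described beside it.

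A chromosome gain adds a copy of every gene on that chromosome, and the RNA of most such genes is known to follow copy number roughly in proportion. Many protein complexes draw subunits from several chromosomes, so that a gain changes the RNA ratio between subunits. Mouse embryonic stem cells are known to acquire whole-chromosome gains in culture, and lines with 2 active X chromosomes differ from lines with 1 X in MAPK signalling, DNA methylation and naive pluripotency genes. X dosage therefore belongs beside every comparison of gains in a mixture of XX, XO and XY lines.

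The libraries held 1735810403 UMIs at time 1 and 1843588321 at time 2, over 145288 and 52242 barcodes. They shared 197 barcode sequences among barcodes with at least 18000 UMIs. All 10 pluripotency markers (Pou5f1, Sox2, Nanog, Zfp42, Esrrb, Utf1, Dppa5a, Tdgf1, Sall4 and Tfcp2l1) were detected in every class, Pou5f1 by the choice of cells. Of 10 fibroblast markers, Col3a1, Dcn, Lum, Postn and Pdgfrb were under 1 count per 1000000 UMIs of those 16 autosomes (CPM) in both time 2 classes of low X dosage, and the markers summed to 216 CPM without a gain and 214 with it. The choice of cells limited Col1a1 and Bgn, which are on that list, so these sums are in part fixed by it. Markers of mesendoderm, endoderm, trophoblast and neural cells summed to between 9.05 and 120 CPM there. The part of free RNA in the results was not tested.

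At time 2 the chromosome 1 dosage of cells without gains of 8 or 14 had 2 peaks. The lower one lay 10% to 15% above the time 1 median with 699 cells, and the upper one 60% to 65% above it with 212 cells. The lower peak thus reached the limit of the class without a gain, and 1296 cells lay between the limits and entered neither class. Just inside the gain limit, 30% to 35% above the time 1 median, there were 103 cells with a median dosage of 1.33. Just outside it, at 25% to 30%, there were 200 cells with a median of 1.27. At time 1 only 174 cells had a gain of 1 alone (1.24% of 14079), against 11990 without a gain. The medians of chromosome 1 dosage were 1.61 with a gain and 1.08 without at time 2, and 1.46 and 0.997 at time 1.

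**Figure D1:**
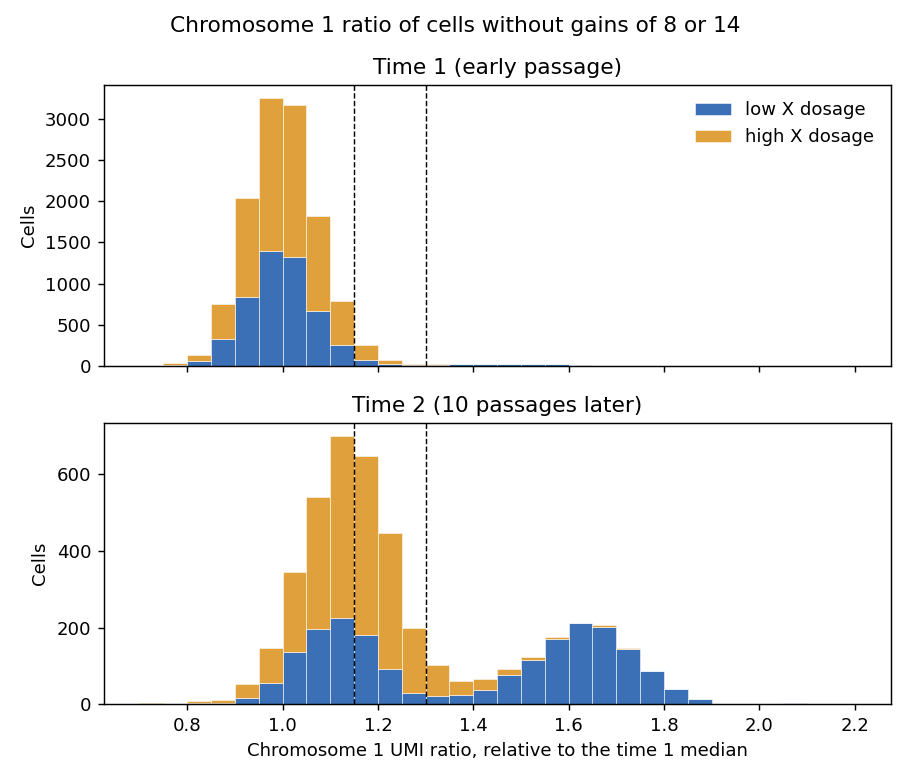
Number of cells (vertical axis) by relative chromosome 1 dosage (horizontal axis, in steps of 0.05) for selected cells without gains of 8 or 14 at time 1 and time 2, coloured by X dosage. Dashed lines mark the limits of both classes, 15% and 30% above the time 1 median, and at time 2 the upper peak consists almost wholly of cells of low X dosage.

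The cells with a gain were mostly of low X dosage, the dosage of cells with 1 active X, as were cells with other gains. X dosage was the share of X-linked UMIs other than Xist, relative to cells with at least 2 UMIs of the Y genes Ddx3y, Eif2s3y, Kdm5d and Uty, and was called low below 1.2. At time 2, 86.5% of gain cells had a low X dosage (exact 95% interval 84.6 to 88.3), against 35.2% of cells without a gain (33.0 to 37.4). At time 1 the shares were 92.0% (86.9 to 95.5) and 40.9% (40.0 to 41.8). Among time 2 cells with other gains the shares were 97.6% with a gain of 8 alone, 99.5% with gains of 1 and 8 and 94.8% with gains of 1 and 14. In both libraries the intervals of cells with a gain of 1 alone and without a gain, which cover counting error only, did not overlap. Cells of high X dosage above the limit of 1.3 formed no peak of their own: of 179 such cells, 81 lay 30% to 35% above the time 1 median. Cells with at least 2 Y UMIs made up 9.78% of gain cells and 4.86% of cells without a gain at time 2. Within cells of low X dosage the shares were 10.8% and 11.6%. In cells of high X dosage, taken as the background for Y UMIs, they were 3.35% and 1.19%.

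Over all cells at time 2, X-linked genes therefore differed along with chromosome 1. The level of a gene was its summed UMIs in a class in CPM, and its log2 ratio, with a pseudocount of 1, compared gain with no gain. A gene counted as higher or lower when it had at least 20 CPM in either class and a log2 ratio of at least 0.5 in size. Among genes on chromosome 1, 187 of 337 were higher (55.5%) and 1 was lower (0.297%). Among genes off chromosome 1, 79 of 5386 were higher (1.47%) and 263 were lower (4.88%), and 84 of those lower were X-linked. The summed X level was 0.703 times that of cells without a gain. With 1 library there is no replicate and no test, and the results below are therefore given for cells of low X dosage, 1150 with a gain and 637 without.

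With X dosage alike, chromosome 1 stood out, and the other autosomes and X differed by at most a few percent. Summed UMIs of chromosome 1, which also chose the cells, were 1.51 times as high with the gain (95% counting interval 1.508 to 1.513). The other autosomes ranged from 0.964 times for chromosome 11 to 1.02 times for chromosome 13, and X was at 0.975 times. Mitochondrially encoded UMIs were at 1.17 times (1.171 to 1.178). The median log2 ratio was 0.53 over 341 genes on chromosome 1 and 0.0036 over 5303 genes elsewhere. On chromosome 1, 198 genes were higher (58.1%) and 1 was lower (0.293%). Elsewhere 48 genes were higher (0.905%) and 93 were lower (1.75%).

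**Figure D2:**
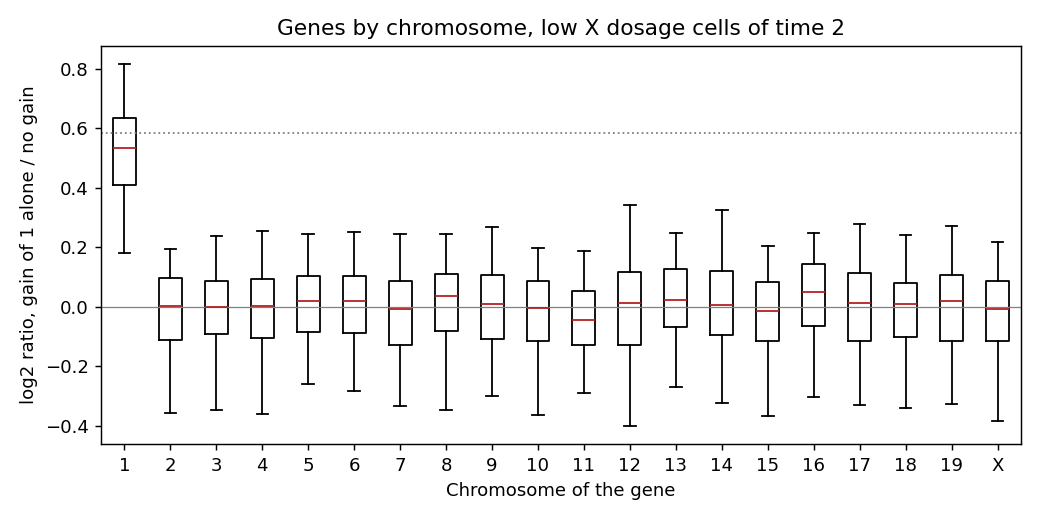
Distribution of log2 ratios (gain of 1 alone over no gain, vertical axis) of genes with at least 20 CPM, by chromosome, in cells of low X dosage at time 2. Boxes span the quartiles with the median as a red line, whiskers reach the 5th and 95th percentiles, and the dotted line marks a 1.5-fold level (log2 of 0.58); chromosome 1 has a median of 0.53 and the others lie near 0.

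Depth and RNA quality also differed between these classes. The median was 51183 UMIs per cell with the gain and 45503 without, and the median mitochondrial share was 2.36% and 1.99%. A doublet score, the likeness of a cell to simulated mixed cells, was among the highest 10% of its library in 6.43% of gain cells and 2.67% of cells without a gain. With those left out, 55 genes off chromosome 1 were higher and 101 lower. With cells of at most 60000 UMIs the counts were 52 and 106, and with at most 5% mitochondrial UMIs they were 51 and 97. The part of depth and of RNA quality in the differences was not tested beyond these counts.

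Along chromosome 1 the higher level ran from end to end. Over 20 segments of 10 Mb, the ratio of summed UMIs ranged from 1.36 in the 7th segment to 1.66 in the 9th, and the median log2 ratio of genes in a segment ranged from 0.43 to 0.61. The 9th segment holds Ptma (prothymosin alpha) and Ncl (nucleolin, a nucleolar protein of ribosome synthesis). Ptma made up 12.7% of all chromosome 1 UMIs in cells without a gain, and Ncl 5.98%. Ptma had a level of 8091 CPM without and 13526 with the gain, a log2 ratio of 0.74, and Ncl had 3818 and 6461, a log2 ratio of 0.76. Both exceeded the median of the chromosome. Ptma, the ribosomal protein gene Rpl37a (6.59%) and Ncl weighed most in the dosage that chose the cells. When genes above 3% of their chromosome's UMIs were left out of the dosage, 188 of 344 genes on chromosome 1 were higher, and off chromosome 1 there were 41 higher and 66 lower genes.

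**Figure D3:**
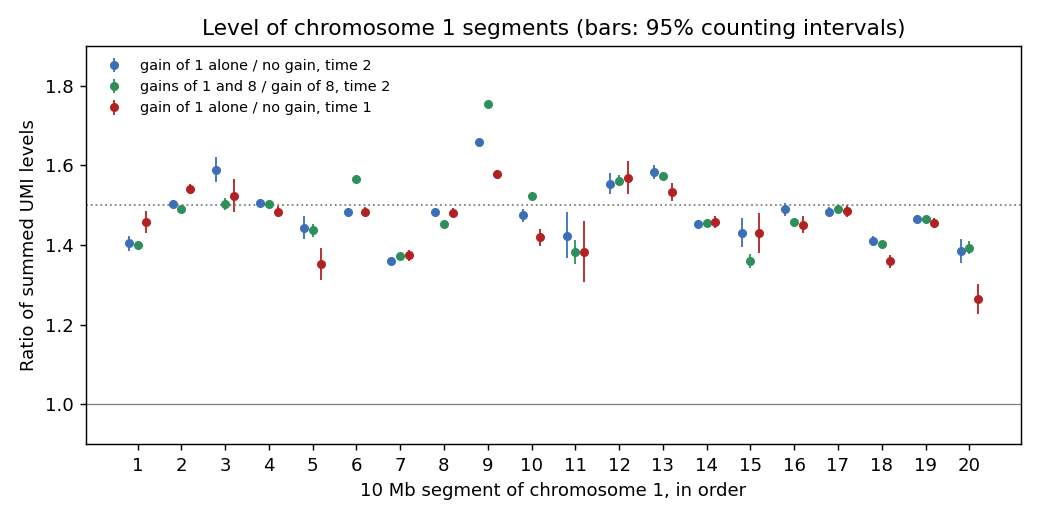
Ratio of summed UMI levels (vertical axis) of 20 consecutive 10 Mb segments of chromosome 1 in 3 comparisons of cells of low X dosage, with 95% counting intervals. All segments lie above 1, and the 9th, which holds Ptma and Ncl, is the highest in each comparison.

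The gene-by-gene response was spread around the chromosome's median. Of the 341 genes, 240 had a log2 ratio between 0.4 and 0.8, 59 between 0.2 and 0.4, 15 between 0 and 0.2, and 6 below 0. At the other end 16 lay between 0.8 and 1 and 5 at 1 or more. The median was 0.49 for 158 genes below 50 CPM and 0.61 for 36 genes between 200 and 500 CPM. As a check on the choice of cells, every other gene of chromosome 1 was used to choose cells and the remaining genes were measured. The measured genes then had medians of 0.48 (164 genes) and 0.50 (177 genes), with 73 and 88 higher.

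Some chromosome 1 genes went well beyond a 1.5-fold level. Apoa2, an apolipoprotein of high-density lipoprotein (chr1:171225054-171226379, GRCm38), had 39.6 CPM without and 91.4 with the gain, a log2 ratio of 1.19. Glul, glutamine synthetase (chr1:153899944-153909723), had 53.6 and 124 CPM, a log2 ratio of 1.19. Nr5a2, a nuclear receptor linked to Oct4 expression, had 16.7 and 38.4 CPM, a log2 ratio of 1.16. Each of these 3 genes was also past the limit in the cells of time 1, with log2 ratios of 1.17 for Apoa2 and 1.66 for Nr5a2. Tuba4a, an alpha-tubulin, had 116 and 221 CPM, and Steap3, a ferrireductase of iron uptake, had 11.9 and 22.4. Ivns1abp, Tomm40l and Vwa3b had log2 ratios of 0.93, 0.99 and 1.46. Glul, Tuba4a, Ivns1abp, Tomm40l and Vwa3b each overlap a gene on the opposite strand.

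The genes of lowest ratio on chromosome 1 varied in how far they departed from it. Acadl, the long-chain acyl-CoA dehydrogenase of fatty acid oxidation (chr1:66830839-66863277), had 38.4 CPM without and 27.4 with the gain, a log2 ratio of -0.47. Its log2 ratio was -0.43 at time 1 and -0.47 among cells that also had a gain of 8. Zdbf2 (log2 ratio 0.21), Btg2 (0.25), Pcmtd1 (0.25), Elf3 (0.34) and Mreg (0.48) were the other 5 genes named by the rule, which ranks by all cells and by cells of low X dosage together. Over all cells, where X dosage was not matched, these 5 had log2 ratios from 0.01 to 0.06. In low X dosage 6 genes of the chromosome lay below 0 and 15 between 0 and 0.2. These 5 were therefore not its lowest there. Mreg, at 0.65 at time 1, lay within the range of most genes of the chromosome, and Zdbf2 had 0.71 with the gain of 8 as background. In low X dosage the 1 chromosome 1 gene past the lower limit was Slc40a1, which encodes the iron exporter ferroportin and was chosen after its values were seen. It had 28.9 CPM without and 12.6 with the gain, a log2 ratio of -1.14, with -1.32 at time 1 and -0.03 in cells with Y UMIs, where it was below 20 CPM in both classes. Over all cells the 1 lower gene of the chromosome was Lefty2 instead (-0.78), which was not past the limit in low X dosage.

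Other cells with a gain of 1 gave another view of the genes off chromosome 1. At time 1, 160 cells of low X dosage with a gain were compared with 4900 without. At time 2, 6034 cells with gains of 1 and 8 were compared with 2182 with a gain of 8 alone, again of low X dosage. These comparisons share no cells with the first, although the second shares its library. Depth differed in them too. The median was 54021 UMIs per cell with the gain and 42940.5 without at time 1. It was 50360 with gains of 1 and 8 and 41631 with a gain of 8 alone. Over all X dosages, 21.8% and 8.72% of cells had at least 2 Y UMIs at time 1. For gains of 1 and 8 and a gain of 8 alone the shares were 6.74% and 11.4%. The part of depth and of lines in the counts below was not tested. At time 1, 62 of 5467 genes off chromosome 1 were higher (1.13%) and 163 lower (2.98%). With the gain of 8 as background, 64 of 5330 were higher (1.2%) and 163 lower (3.06%). On chromosome 1 56.9% of genes were higher and 0.575% lower at time 1, and 53.8% were higher and 0.3% lower with the gain of 8 as background.

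Most genes called off chromosome 1 had the same direction in those cells. Of the 48 higher genes, 40 could be measured at time 1 and 28 of them (70.0%) were past the limit in the same direction, which is 50.9% of the 55 higher genes of time 1 that could be measured in both. Of the 93 lower genes, 84 could be measured and 59 (70.2%) were also lower, 47.6% of the 124 lower genes of time 1. With the gain of 8 as background, 28 of 42 higher genes (66.7%) and 56 of 77 lower genes (72.7%) were past the limit, which is 46.7% and 37.8% of the lists of that comparison. None of these genes was past the limit in the opposite direction in either comparison. The shares stand beside backgrounds of 1.13% to 3.06% over all genes off chromosome 1.

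The named higher genes off chromosome 1 included Ptch1, Cpne5, Ccnd2 and Cdk6. Ptch1, the receptor and a target of Hedgehog signalling (chr13:63508328-63573598), had 39.1 CPM without and 83.4 with the gain, a log2 ratio of 1.07 (95% counting interval 0.99 to 1.19). At time 1 Ptch1 had 50.4 and 122 CPM, and with the gain of 8 as background 33.1 and 55.5. Cpne5, a calcium-dependent membrane-binding copine (chr17:29155556-29238167), had 27.7 and 66.4 CPM, a log2 ratio of 1.23 (1.14 to 1.38). Its levels at time 1 were 13.5 and 39.2 CPM. The ranges of Ptch1 and Cpne5 without a gain, from 33.1 to 50.4 and from 13.5 to 32.1 CPM over the 3 comparisons, lay below those with one.

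Ccnd2 and Cdk6, a D-type cyclin and the kinase that D-type cyclins activate in G1, were higher together. Ccnd2 had 10.2 CPM without and 21.6 with the gain, a log2 ratio of 1.02, and 0.91 at time 1, where it was below 20 CPM in both classes, and 1.66 with the gain of 8 as background. Cdk6 had 19.6 and 39.5 CPM, a log2 ratio of 0.98, and 0.62 and 0.38 in the other comparisons, the last below the limit. Both overlap genes on the opposite strand. Over the list of G1 cyclins and inhibitors, 3 of 10 measured genes were higher, the third being Ccnd1 (158 and 256 CPM, log2 ratio 0.69), 1 was lower, and the median was 0.03. At time 1 only Cdk6 of 9 measured genes of that list was higher. The shares of all genes off chromosome 1 were 0.905% higher and 1.75% lower here, and 1.13% higher and 2.98% lower at time 1. With the gain of 8 as background they were 1.2% and 3.06%. The lower gene was Cdkn2a, which encodes cell cycle inhibitors, with 36.5 and 22.4 CPM and log2 ratios of -0.68 here, -0.95 at time 1 and -1.09 with the gain of 8. Ccnd1 was past the limit with the gain of 8 (0.78) but not at time 1 (0.42).

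The remaining higher genes named by the rule came from several pathways. Plac8, a small cysteine-rich protein first found in placenta, had 105 and 212 CPM, a log2 ratio of 1.01. Ephx2, the soluble epoxide hydrolase, had a log2 ratio of 0.84 here and 0.89 at time 1. Blnk, an adaptor of B-cell receptor signalling, had 0.75 and 0.81. Rragd, a Rag GTPase that recruits mTORC1 to lysosomes, had 0.75 and 0.56, and Ddc, the DOPA decarboxylase, had 0.71 and 0.77. The 10 named higher genes were also counted without the minimum of 20 CPM. All were past the limit at time 1, and 8 with the gain of 8 as background (not Cdk6 and Blnk). The higher shares over all genes off chromosome 1 were 1.13% and 1.2%. These shares keep the minimum of 20 CPM, so they are not a like background for the counts.

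**Figure D4:**
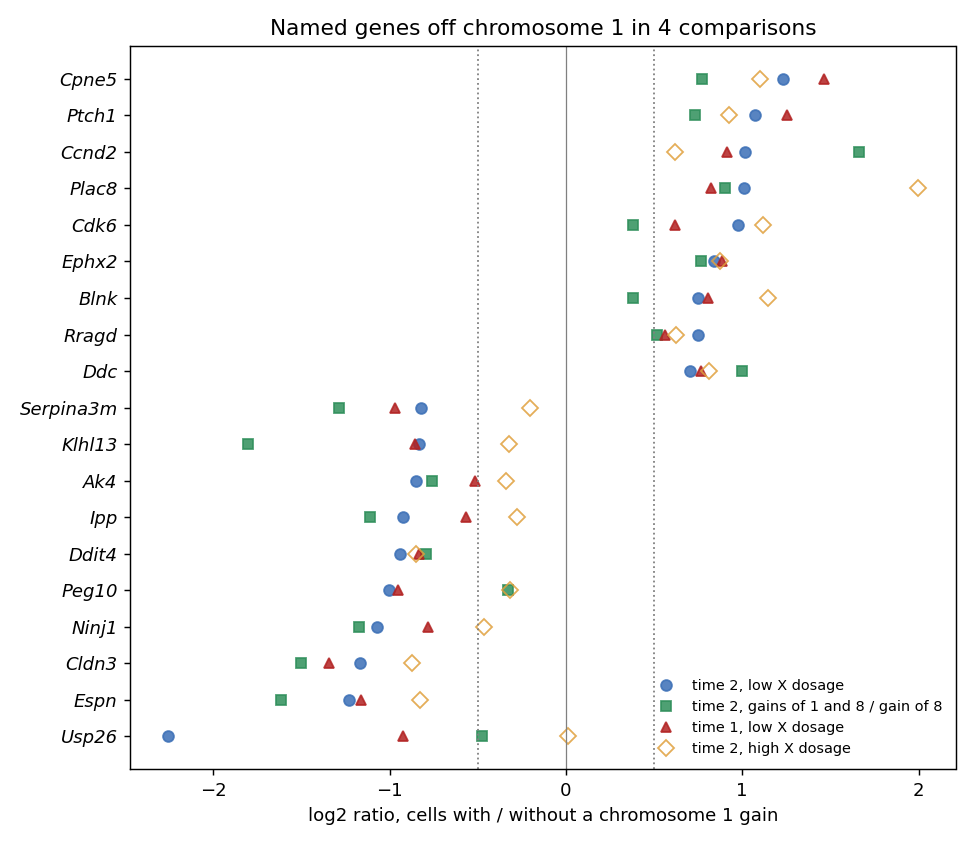
Log2 ratios (horizontal axis) of 9 of the 10 highest and of the 10 lowest named genes off chromosome 1 in 4 comparisons of cells with and without a chromosome 1 gain. Dotted lines mark the limit of 0.5; the higher genes shown lie right of 0 in every comparison, and Usp26 at 0.01 in cells of high X dosage is the only lower gene not left of it.

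The lower genes off chromosome 1 included Espn, Cldn3 and the keratins Krt8 and Krt18. Espn, the actin-bundling protein espin (chr4:152120331-152152371), had 54.9 CPM without and 22.8 with the gain, a log2 ratio of -1.23 (-1.38 to -1.16). Cldn3, a tight-junction claudin (chr5:134986214-134987472), had 23.3 and 9.82 CPM, a log2 ratio of -1.17. At time 1 Espn had 82.0 and 36.0 CPM, and Cldn3 had 37.7 and 14.2. With the gain of 8 as background their log2 ratios were -1.61 and -1.50. Cldn3 overlaps Wbscr25 on the opposite strand. In the list of adhesion, keratin and cytoskeletal genes, 4 of 11 were lower and none higher, with a median of -0.25, beside a lower share of 1.75% over all genes off chromosome 1. Over all time 2 cells only Krt8 of 11 was lower (share over all genes 4.88%), and the median was -0.0012. The 4 lower members in low X dosage were Krt8, Krt18, the galectin gene Lgals1 and the smooth muscle gene Tagln. At time 1, 6 of 13 members were lower (share over all genes 2.98%). With the gain of 8 as background only Lgals1 of 9 was lower (share over all genes 3.06%), and both keratins were below 20 CPM there. Krt8 and Krt18, the paired keratins of simple epithelia, had log2 ratios of -1.35 and -1.09 here and -1.56 and -1.41 at time 1. In cells of high X dosage these 2 keratins had log2 ratios of 0.05 and 0.32.

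Ddit4, Bnip3 and Slc2a1, genes of the response to low oxygen or stress, were lower, while most members of those lists were not past the limit. Ddit4, an inhibitor of mTORC1 induced by hypoxia and stress, had 56.9 CPM without and 29.2 with the gain, a log2 ratio of -0.94 (-1.07 to -0.86). At time 1 Ddit4 had 109.5 and 61.0 CPM, and with the gain of 8 it had 44.2 and 25.1. Bnip3, a mitophagy receptor, had 143 and 83.5 CPM, with log2 ratios of -0.77 here, -0.57 at time 1 and -0.71 with the gain of 8. Slc2a1, the glucose transporter Glut1, had 202 and 139 CPM, with -0.54, -0.68 and -0.09. Hk1 was the other lower gene among 18 measured of glycolysis and the hypoxia response, where 3 were lower (share over all genes off chromosome 1 1.75%), none was higher and the median was -0.16. At time 1 and with the gain of 8 as background 2 of 18 were lower. The lower shares over all genes off chromosome 1 were 2.98% and 3.06% in these comparisons. Ak4, a mitochondrial adenylate kinase, had 48.3 and 26.3 CPM, a log2 ratio of -0.85. Of 9 measured genes of the integrated stress and unfolded protein responses, Ddit4 and Trib3 were lower and none was higher, with a median of -0.05. Only Ddit4 of 10 was lower at time 1, where the median was 0.05, and only Ddit4 of 10 with the gain of 8.

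The promoters of the 3 lower genes Ddit4, Bnip3 and Slc2a1 are printed because the genes are known as targets of hypoxia-inducible factors, whose core site is ACGTG or GCGTG. Each sequence is the 250 bases before the RefSeq start of the gene (GRCm38.p6), 5′ to 3′ on the gene's strand, with matches on either strand in capitals (CACGT and CACGC on the other strand). CACGTG holds both strands of 1 motif and counts as 2 matches. Ddit4 lies at chr10:59951771-59952020 on the minus strand, Bnip3 at chr7:138909507-138909756 on the minus strand, and Slc2a1 at chr4:119108495-119108744 on the plus strand.
Ddit4: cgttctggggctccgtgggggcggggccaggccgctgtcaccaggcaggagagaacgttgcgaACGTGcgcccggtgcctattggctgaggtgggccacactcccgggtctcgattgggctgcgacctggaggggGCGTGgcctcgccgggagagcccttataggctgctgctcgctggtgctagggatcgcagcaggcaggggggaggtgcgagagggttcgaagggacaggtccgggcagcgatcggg
Bnip3: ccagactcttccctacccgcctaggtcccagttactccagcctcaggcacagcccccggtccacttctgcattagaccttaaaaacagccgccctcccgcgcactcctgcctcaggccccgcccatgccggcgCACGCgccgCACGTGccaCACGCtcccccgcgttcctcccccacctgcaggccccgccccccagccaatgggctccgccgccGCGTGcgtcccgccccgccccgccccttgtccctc
Slc2a1: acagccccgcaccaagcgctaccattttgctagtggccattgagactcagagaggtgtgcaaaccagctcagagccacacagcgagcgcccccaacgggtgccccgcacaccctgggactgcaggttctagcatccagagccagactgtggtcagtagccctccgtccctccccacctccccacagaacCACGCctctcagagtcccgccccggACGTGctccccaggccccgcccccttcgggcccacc
Ddit4 and Slc2a1 had 2 matches each and Bnip3 had 5. Of all 32851 such windows, 38.6% held at least 1 match, 16.7% at least 2 and 2.58% at least 4. Other genes looked up had 0 and 3 matches in the 2 windows of Hk1, 2 in each of the 4 windows of Ak4, 4 in Ankrd37 and 2 in Slc16a3. A match describes letters in the window and not binding.

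Imprinted genes were lower in part. Of 10 measured imprinted genes, 5 were lower and none higher, with a median of -0.48 beside 0.015 over all genes measured and a lower share of 1.75% over all genes off chromosome 1. Over all time 2 cells 3 of 11 were lower (share over all genes 4.88%), without Mest, Meg3 or Rian, and the median was -0.14. Peg10, a paternally expressed gene of retrotransposon origin, had 56.7 CPM without and 27.7 with the gain, with log2 ratios of -1.01 here, -0.95 at time 1 and -0.33 with the gain of 8. H19 had 46.3 and 30.8 CPM (-0.57), Mest 41.5 and 25.9 (-0.66), Meg3 193 and 135 (-0.52) and Rian 44.1 and 30.4 (-0.52). In cells of high X dosage Mest, Meg3 and Rian had log2 ratios of 0.29, 0.25 and 0.34. At time 1 the lower members were H19, Mest and Peg10, 3 of 11 (share over all genes 2.98%). Meg3 and Rian of 11 were lower with the gain of 8 as background (share 3.06%), Grb10 was higher at 1.31 and the median was -0.31.

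The lowest ratio off chromosome 1 belonged to Usp26, an X-linked deubiquitinase gene known from testis. It had 29.0 CPM without and 5.28 with the gain, a log2 ratio of -2.26. The levels without a gain varied widely, with 9.22 CPM at time 1, 62.2 in cells of high X dosage and 77.6 in cells with Y UMIs at time 2. In cells of high X dosage it had 62.8 CPM with the gain, a log2 ratio of 0.01, and with the gain of 8 as background it had only 2.51 and 1.52 CPM, too low for the comparison. Klhl13, an X-linked adaptor of Cullin3 ubiquitin ligases, had 192 and 107 CPM, with log2 ratios of -0.84 here, -0.86 at time 1 and -1.80 with the gain of 8. Ninj1, a protein of plasma membrane rupture, had 30.7 and 14.1 CPM (-1.07), and Ipp had 84.9 and 44.3 (-0.92). Serpina3m, a protease inhibitor of a gene family with near-identical copies, had -0.82, overlaps Serpina3k on the same strand and is uncertain for that reason.

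The same named genes were also measured in other subsets of the time 2 cells. Both subsets lie within the cells that were used to name the genes, so the counts below are in part fixed by that choice and serve as a description, made without the minimum of 20 CPM, which the background shares keep. The 179 cells of high X dosage with a gain stood apart from the 1175 without: their median was 89864 UMIs against 52388, their median chromosome 1 dosage was 1.36, and 43.0% against 3.49% had doublet scores among the highest 10%. In these cells 9 of the 10 named higher genes were past the limit (background 1.98%). Of the 10 lower genes 3 were past it there (background 1.7%), and 9 were below 0. Without the highest doublet scores 104 and 1134 cells remained, and 9 of 10 higher genes (background 2.58%) and 3 of 10 lower genes (background 1.69%) were past the limit. The median of chromosome 1 genes was 0.33 in all 179 and 1175 cells of high X dosage, lower than the 0.53 of low X dosage, and 23% of them were higher and 0% lower. In cells with at least 2 Y UMIs (130 and 88) 8 of 10 higher genes (background 2.98%) and 10 of 10 lower genes (background 4.9%) were past the limit. On chromosome 1, 57.5% of genes were higher and 1.16% lower in those cells. Most cells with Y UMIs are also cells of low X dosage, 124 of 130 with a gain and 74 of 88 without.

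The cells between the limits gave levels that differed from gene to gene. These 302 cells of low X dosage had a median chromosome 1 dosage of 1.19. They were read beside the same classes with and without a gain that chose the named genes, so their levels are a description. Beside cells without a gain, 78 of the 93 lower and 38 of the 48 higher genes off chromosome 1 kept their direction. Past the midpoint of the log2 ratio with the gain were 36 of these lower and 12 of these higher genes. On chromosome 1, 176 of the 198 higher genes kept their direction and 18 were past the midpoint. The median log2 ratios were -0.27, 0.19 and 0.16, beside -0.64, 0.67 and 0.62 with the gain. Among higher genes, Cpne5 had 23.4 CPM in the cells between the limits, beside 27.7 without and 66.4 with the gain, and Ephx2, Blnk and Ddc also stayed near the level without a gain. Cdk6 had 29.9 CPM, beside 19.6 and 39.5, and Rragd had 41.4 beside 30.9 and 52.6. Among lower genes, Cldn3 had 11.9 CPM, beside 23.3 without and 9.82 with the gain, and Ninj1 had 18.1 beside 30.7 and 14.1. Peg10 had 64.0 CPM, beside 56.7 and 27.7, and Ak4 and Serpina3m had 45.4 and 21.5, near their 48.3 and 21.7 without a gain.

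Members of the same complex or list differed by chromosome, which the choice of cells by chromosome 1 RNA in part fixes. The shares of higher genes were 58.1% on chromosome 1 and 0.905% off it. In the list of nuclear-encoded oxidative phosphorylation genes, the chromosome 1 members Cox5b (0.59), Ndufs1 (0.53) and Sdhc (0.69) were higher, and none of 18 elsewhere, whose median was 0.05. Mcm3 and Mcm6, subunits of the replicative helicase, had log2 ratios of 0.83 and 0.72, while Mcm2, Mcm4, Mcm5 and Mcm7 on other chromosomes had 0.22, 0.23, 0.18 and 0.07. The helicase is a hexamer with 1 of each subunit. Hspd1 and Hspe1, the mitochondrial chaperonin and its cochaperonin, are neighbours on chromosome 1 and had 0.64 and 0.56, beside a median of 0.03 over 16 other chaperones. Psmd1, a scaffold of the proteasome lid and base particle, had 0.63, and the other 30 proteasome genes had a median of 0.04 with none past the limit. In mitosis, Cenpf (0.81) and Nek2 (0.59) were higher and Nuf2 had 0.48, beside a median of 0.09 over 17 members elsewhere.

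**Figure D5:**
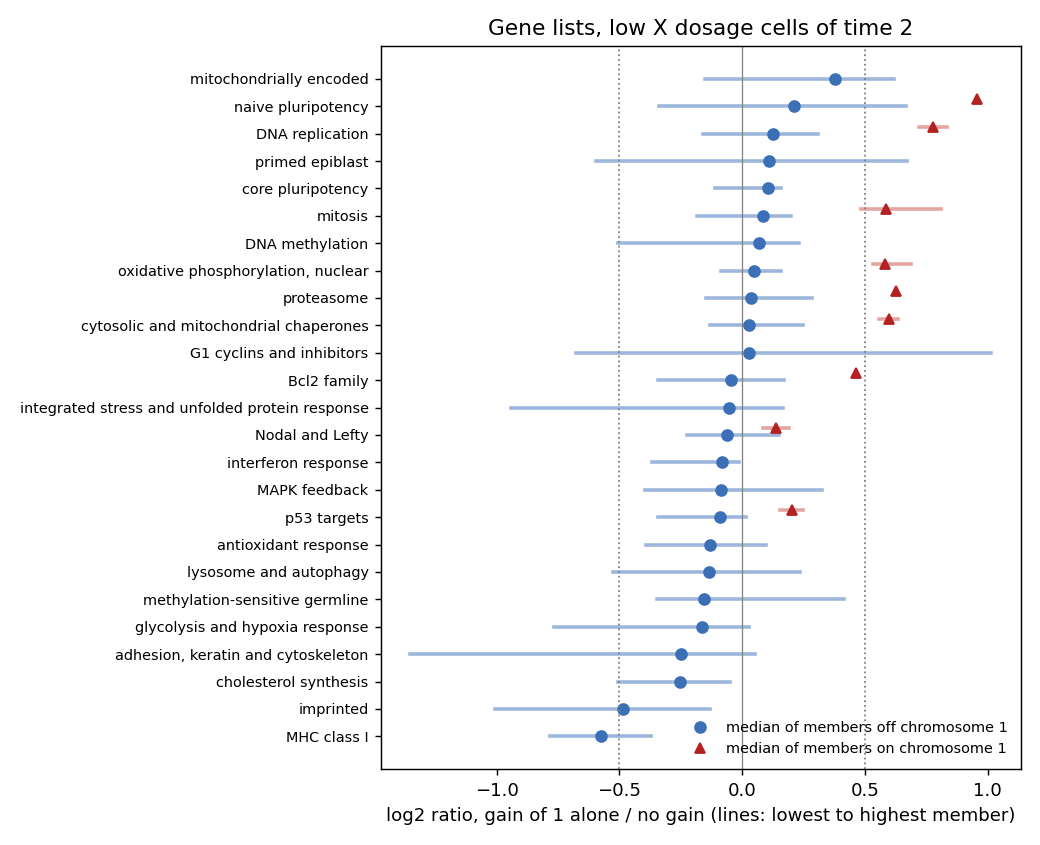
Median log2 ratios (horizontal axis, gain of 1 alone over no gain, low X dosage, time 2) of gene lists, with circles for members off chromosome 1 and triangles for members on it; lines run from the lowest to the highest member. Members on chromosome 1 of the oxidative phosphorylation, replication, proteasome, chaperone and mitosis lists have medians from 0.58 to 0.78. The medians of the other members of these lists lie between 0.03 and 0.13.

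The core and naive pluripotency lists are given next. None of 8 core pluripotency genes was past the limit, and Pou5f1 itself had 879 and 959 CPM. Among 11 measured naive genes, Tfcp2l1, which lies on chromosome 1, was higher (51.2 and 100.2 CPM, log2 ratio 0.96), as was the X-linked Nr0b1 (43.3 and 69.5, 0.67), and Nanog had 0.08. The higher shares over all genes were 0.905% off and 58.1% on chromosome 1. The median of the naive list was 0.22. Of its 10 members off chromosome 1, 9 were above 0, beside 2698 of all 5303 genes off chromosome 1. At time 1 there were 5 higher naive genes, Esrrb, Nr0b1, Tbx3, Tfcp2l1 and Zfp42, and the median of the list was 0.47, beside higher shares of 1.13% off and 56.9% on chromosome 1 over all genes. Fgf4, Nr0b1, Tbx3 and Tfcp2l1 of 11 were higher with the gain of 8 as background, and Dppa3 was lower. There the higher shares over all genes were 1.2% off and 53.8% on chromosome 1. Over all time 2 cells, with X dosage not matched, the naive genes Klf4, Nanog and Tbx3 were lower instead (share over all genes 4.88%) and none was higher. None of 11 p53 targets, 10 antioxidant genes, 9 Bcl2 family genes, 6 genes of MAPK feedback or 3 interferon response genes was past the limit in cells of low X dosage with a gain of 1 alone at time 2, with medians from -0.13 to -0.04. In the other comparisons of low X dosage, Dusp6 of MAPK feedback was lower at time 1, and Dusp4 and the interferon response gene Bst2 were lower with the gain of 8 as background. Of 15 lysosome and autophagy genes Hexa alone was lower, none was at time 1, and Grn, Hexa and Lamp1 were with the gain of 8 as background. Of 2 measured MHC class I genes H2-K1 was lower, and at time 1 H2-K1, Psmb8 and Tapbp were lower of 6 measured. The shares of lower genes off chromosome 1 were 1.75% at time 2, 2.98% at time 1 and 3.06% with the gain of 8.

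In cells of low X dosage with a gain of 1 alone, cholesterol synthesis genes had ratios below 0 in both libraries. Of 14 measured at time 2, Dhcr7 was lower (share over all genes 1.75%), all 14 were below 0 and the median was -0.25. Over all genes off chromosome 1, 2698 of 5303 were above 0 at time 2 and 2759 of 5467 at time 1. At time 1, 6 of 16 were lower (share over all genes 2.98%), among them Cyp51, Msmo1 and Mvd, all 16 were below 0 and the median was -0.45. With the gain of 8 as background none of 14 was past the limit and the median was -0.18, and over all time 2 cells none was past it and 5 of 14 were above 0.

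Some mitochondrially encoded genes were higher at time 2. Of 13 such genes, mt-Nd3 and mt-Cytb were past the limit in cells of low X dosage, with log2 ratios of 0.62 and 0.51, and the median was 0.38. Over all cells 9 of 13 were higher. The shares of higher genes off chromosome 1 were 0.905% and 1.47% in these comparisons. At time 1 none was past the limit and the median was 0.09. With the gain of 8 as background 1 of 13 was higher (share over all genes off chromosome 1 1.2%). The median there was 0.33, and summed mitochondrial UMIs were at 1.14 times. Because the mitochondrial share of a cell is also a measure of RNA quality, these values stand beside the medians of 2.36% and 1.99% given above. Their part in the results was not tested.

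Of 5 measured primed epiblast genes, 1 was higher and 2 were lower in low X dosage at time 2. The shares over all genes off chromosome 1 were 0.905% and 1.75%. Over all time 2 cells Lef1 and Sox4 of 6 were higher (share 1.47%), Foxd3 alone was lower (share 4.88%) and the median was 0.20. With the gain of 8 as background Lef1, Otx2 and Sox4 of 5 were higher (share 1.2%), none was lower and the median was 0.87. At time 1 Lef1 of 6 was higher (share 1.13%), Car2 and Pou3f1 were lower (share 2.98%) and the median was -0.34. Lef1, a transcription factor of Wnt signalling, had 25.1 CPM without and 40.5 with the gain and was higher in each comparison of low X dosage (0.67, 1.33 at time 1 and 1.00 with the gain of 8). Pou3f1 and Dnmt3b, genes of the formative state, were lower in low X dosage at time 2, with -0.60 and -0.50. Pou3f1 had -0.77 at time 1 and 0.33 with the gain of 8 as background. Dnmt3b had -0.49 and -0.18 there. This list is limited by the choice of cells, which set a maximum on Fgf5, Fgf8 and Car2.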

How the data were processed

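Per the labels' protocols, pooled lines went through 10x Chromium (chemistry version 3.1), each time point giving 1 library. Raw UMI counts for each barcode and gene are what the authors deposited. They came from Cell Ranger 6.1.2, which the file headers name, and from mm10 (GRCm38), which the submitters' processing notes name. No step between these counts and the deposit is given in the sources used here. Of 32285 genes, 32235 matched GENCODE M21 (GRCm38) by identifier, 1798 of them on chromosome 1. How strand was counted is not given in the sources used here.

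From these counts, 26345 and 28359 barcodes with at least 18000 UMIs gave 25962 and 28317 after the gene and mitochondrial limits, and 14079 and 21387 after the marker limits. Scrublet in scanpy 1.11.5 marked 0 barcodes at its automatic threshold, so doublets were not removed, and leaving out the highest 10% of scores (0.133 and above at time 1, 0.170 at time 2) was an alternative chosen after seeing this. UMIs were summed per class, scaled to CPM (per 1000000 UMIs of the 16 reference autosomes) and compared as log2 ratios with a pseudocount of 1. Genes needed 20 CPM in either class. Levels have exact Poisson, ratios conditional binomial and shares Clopper-Pearson intervals at 95%, which cover counting error only. The interval of a log2 ratio is that of the ratio without the pseudocount.

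Cells are not replicates, so no test was made. Named genes were ranked by the smaller size of the log2 ratios over all cells and over cells of low X dosage, both of 1 sign: the 10 highest and 10 lowest off chromosome 1, and the 8 highest and 6 lowest on it, without Xist and Y genes. Of the 10 highest off chromosome 1, 1 is not reported here by name, although the counts include it. The classes, comparisons and gene lists were chosen with earlier results of these data known. Promoter windows came from RefSeq (GRCm38.p6), where 7 of 9 genes looked up matched. Scripts were tested on simulated data and used pandas 2.3.3, scipy 1.17.1 and numpy 2.4.6 under Python 3.11.15, with scaling factors from edgeR 4.0.16 in R 4.3.3 as an alternative.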

Additional observations from a re-analysis of the deposited data

How the results depend on the processing

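Each comparison was repeated with other scaling, filters on low values, pseudocounts, dosage limits, depth limits, mitochondrial limits and weights of cells. Of 172 alternative values of the main counts and shares, 141 stayed within 1.5 times the count or within the interval of the share. The level that a gene had to reach moved the counts most. Off chromosome 1, with at least 5, at least 50 or no minimum CPM, the number past the limit was 733, 178 and 1227 over all cells (342 as reported), 387, 48 and 744 in low X dosage (141), 559, 76 and 877 with the gain of 8 (227), and 677, 86 and 1488 at time 1 (225). On chromosome 1, at least 50 CPM or no minimum gave 118 and 294 over all cells (188 as reported), 130 and 320 in low X dosage (199), and 128 and 322 at time 1 (200), and no minimum gave 287 with the gain of 8 (180). A gain limit of 1.2 gave 128 genes off and 95 on chromosome 1 over all cells. Cells of high X dosage gave 199 off, 107 higher and 92 lower, and 73 on it, a choice made after seeing the data. A no-gain limit of 1.1 gave 213 genes off chromosome 1 in low X dosage, and leaving abundant genes out of the dosage gave 142 with the gain of 8. With no limit on Fgf5, Fgf8 and Car2, also chosen after seeing the data, time 1 gave 612 genes off chromosome 1. The share of gain cells with low X dosage (86.5%) was 94.6% at a gain limit of 1.4, 81.0% and 89.8% at X limits of 1.1 and 1.4, and 91.2% without the highest doublet scores, and the share without a gain (35.2%) was 28.9% at the X limit of 1.1. For these moved counts and shares the cause was not tested. Usp26 over all cells (-1.58) was at 0.014 in cells of high X dosage. With edgeR's TMM factors 49 genes off chromosome 1 were higher and 63 lower in low X dosage, and no scaling moved the median of all genes by over 0.1. No paired analysis was possible because each time point had 1 library. Leaving out barcodes called by Scrublet was not run because none was called. With 1 library per time point, a difference between classes cannot be told apart from a difference between lines or clones, and intervals cover counting error only.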
